A study of Mus musculus with 10 samples.

Results

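The Toll-like receptors Tlr1, Tlr2, Tlr3, Tlr4, Tlr6, Tlr7, Tlr8, Tlr9 and Tlr13 and the co-receptor Cd14 were followed as 1 family of 10 genes, chosen by symbol from a table of 55421 genes. The choice was made with earlier results of these data known, so counts of these genes beside the share of all genes are a description. RNA-seq was performed on myeloid-derived suppressor cells (MDSC) of the spleen and tumor-associated macrophages (TAM) of the tumor, at day 15 after mice received cells of the MC17-51 fibrosarcoma. Cancer and inflammation expand MDSC, a mixed population of immature myeloid cells, whereas TAM are macrophages found in tumors. Shp2f/f mice carry floxed alleles of Ptpn11, the gene of the phosphatase SHP-2, and no Cre. Shp2f/fLysMcre mice carry the same floxed alleles and also Cre recombinase driven by the lysozyme M promoter, which is active in monocytes, macrophages and neutrophils. There were 2 MDSC libraries and 3 TAM libraries of each genotype, 10 in all, and every mouse bore a tumor. MDSC were isolated on magnetic beads as GR-1+ cells, which the study describes as GR1hi Ly6G+ Ly6C-, TAM were sorted as live CD45+CD11b+F4/80+Ly6G- cells, and both came from the same mice. The labels do not say which libraries shared a mouse or whether mice were pooled, so p-values measure the spread between these libraries.

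Toll-like receptors recognize conserved microbial molecules and nucleic acids and signal through the adaptors MyD88 and TRIF to NF-kB and interferon regulatory factors. Tlr1, Tlr2, Tlr4 and Tlr6 act at the cell surface on lipoproteins and lipopolysaccharide, and Cd14 hands these ligands over to them. Tlr3, Tlr7, Tlr8, Tlr9 and Tlr13 are endosomal receptors of the group that senses RNA or DNA, and the chaperone Unc93b1 carries them to endosomes. Macrophages and monocytes use both sets as sensors.

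In TAM, each of the 10 genes was higher in Shp2f/fLysMcre than in Shp2f/f mice, from 1.11-fold for Tlr2 to 2.49-fold for Tlr8, where 23.9% of all genes tested were called higher. In MDSC, 1 of the 10 changed, and it fell, where 4.28% of all genes tested were called and 0.520% were called lower. Tlr1 is this gene, so it moved in opposite directions in the 2 cell types.

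The 3 windows below are shown because they belong to the largest rise in TAM (Tlr8), the smallest (Tlr2) and the gene with opposite changes (Tlr1). Each runs from 250 bases before to 50 bases after a RefSeq start on GRCm38.p6, written 5′ to 3′ on the minus strand, on which all 3 genes lie. Tlr8 is at chrX:167264280-167264579, Tlr2 at chr3:83841559-83841858 and Tlr1 at chr5:64933509-64933808. Capitals mark matches, on either strand, to GAGGAA (the core of sites bound by PU.1-type Ets factors), to TTGCNNAA (C/EBP) or to the NF-kB motif.
Tlr8: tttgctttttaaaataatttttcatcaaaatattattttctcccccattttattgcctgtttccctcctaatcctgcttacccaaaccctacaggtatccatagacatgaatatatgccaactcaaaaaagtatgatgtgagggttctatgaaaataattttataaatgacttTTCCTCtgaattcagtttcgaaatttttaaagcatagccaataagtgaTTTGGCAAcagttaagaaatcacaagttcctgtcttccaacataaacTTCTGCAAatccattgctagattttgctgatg
Tlr2: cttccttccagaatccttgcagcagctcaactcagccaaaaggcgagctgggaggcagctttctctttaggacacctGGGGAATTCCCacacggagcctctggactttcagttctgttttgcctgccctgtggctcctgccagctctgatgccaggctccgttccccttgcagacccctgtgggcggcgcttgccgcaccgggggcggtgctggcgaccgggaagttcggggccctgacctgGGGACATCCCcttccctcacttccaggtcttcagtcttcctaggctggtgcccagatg
Tlr1: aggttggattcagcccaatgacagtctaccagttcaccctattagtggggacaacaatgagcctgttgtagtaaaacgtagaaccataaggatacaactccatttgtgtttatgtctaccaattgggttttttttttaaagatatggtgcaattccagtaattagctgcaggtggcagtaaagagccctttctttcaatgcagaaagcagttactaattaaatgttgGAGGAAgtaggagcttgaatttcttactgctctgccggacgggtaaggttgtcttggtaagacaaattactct

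The Tlr8 window held 1 match to GAGGAA, ending 71 bases before the start, and TTGCNNAA at 2 positions. The Tlr2 window held 3 matches to the NF-kB motif, of which 2 overlap each other, and the Tlr1 window held 1 match to GAGGAA that ends 17 bases before the start. RefSeq windows were matched for 7 of the 10 genes, as 9 windows, since Tlr1 and Tlr6 have 2 each. GAGGAA was in 4 of these 9 windows (Tlr1, Tlr8, Tlr9 and Tlr13) and in 28.3% of all 32851 windows. TTGCNNAA was in 4 of the 9 (Tlr3, Tlr6, Tlr8 and Tlr13) and in 10.8% of all windows. The NF-kB motif was in 2 of the 9 (Tlr2 and Tlr3) and in 8.46% of all windows. The AP-1 motif TGANTCA was found for Tlr9 and in 7.81% of all windows, and the interferon-stimulated response element, searched as GAAA repeated after 2 bases of any kind and found as 2 overlapping matches, for Tlr6 and in 3.44% of all windows. The other window of Tlr1, at chr5:64932650-64932949, and that of Tlr6, at chr5:64959999-64960298, held no match to any of these motifs. A match of letters describes the window and is not evidence of binding.

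Tlr1 and Tlr6 are near-identical over part of their coding sequence, and short reads there can come from either gene. The longest stretch that their transcripts share is 229 bases, shown here because reads within it fit both genes equally well. It lies in the last coding exon of Tlr1, exon 3 of 3, at chr5:64925537-64925765, and in exon 2 of 2 of Tlr6, at chr5:64953828-64954056 (GRCm38, minus strand).
Tlr1 and Tlr6: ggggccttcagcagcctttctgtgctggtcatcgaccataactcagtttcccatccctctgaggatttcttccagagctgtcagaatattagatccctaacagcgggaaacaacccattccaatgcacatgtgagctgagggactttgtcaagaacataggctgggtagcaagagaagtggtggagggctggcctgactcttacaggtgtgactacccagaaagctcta

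Of the 42-base segments of Tlr1, 17.2% occurred in another gene, and for Tlr6 this share was 14.1%. The 2 genes share 513 such segments. Tlr3 shared 5.63% of its segments with Gm45542, which overlaps it on the opposite strand, Tlr4 shared 0.36%, and the other 6 genes shared none. How reads with several matches were counted was not stated, so the values of Tlr1 and Tlr6 are uncertain to that extent. The genes lie 18468 bases apart, Tlr1 at chr5:64924679-64933563 and Tlr6 at chr5:64952031-64960097. Tlr2 lies at chr3:83836272-83841767, Tlr3 at chr8:45395665-45411080, Tlr4 at chr4:66827584-66930284 and Tlr9 at chr9:106222598-106226883. The X-linked genes are Tlr7 at chrX:167304929-167330558, Tlr8 at chrX:167242696-167264329 and Tlr13 at chrX:106143204-106160493.

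Total counts were between 28844660 and 38222998 per library. The targeted gene, Ptpn11, had 121, 125 and 121 CPM (counts relative to library size, with sizes adjusted by TMM, the trimmed mean of M-values) in Shp2f/f TAM and 50.9, 54.2 and 53.9 CPM in Shp2f/fLysMcre TAM. In MDSC it had 113 and 99.2 CPM against 94.8 and 79.7 CPM, a log2 difference of -0.29 (SE 0.143). These counts cover the whole gene, the unfloxed exons included. Libraries labelled MDSC held Ly6g, which defines the granulocytic cells the study describes, at 28.7 to 102 TPM (a level relative to the library and to the gene's exon length), below the monocyte genes Ccr2 (528 to 885 TPM) and Csf1r (527 to 757 TPM), while the granulocyte gene S100a8 was at 14309 to 37698 TPM. MDSC Shp2f/fLysMcre replicate 2 stood apart from the other MDSC libraries, with a summed CPM of the total count of 500 for 6 fibroblast and tumor markers against 6.91 to 25.3 in the other 3. Xist, which is expressed in female cells, was at 0.0298 to 18.5 CPM of the total count in the Shp2f/f libraries and at 130 to 350 in the Shp2f/fLysMcre libraries. The Y-linked gene Ddx3y was at 52.2 to 87.3 CPM of the total count in Shp2f/f and 24.4 to 42.2 in Shp2f/fLysMcre, and Eif2s3y at 71.1 to 90.4 against 21.8 to 38.3, so the Shp2f/fLysMcre libraries held transcripts of both kinds. The share of each sex therefore moved with genotype and cannot be told apart from it.

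Among the 10 genes, levels per length were highest for Cd14 and lowest for Tlr3 in all 4 groups. In Shp2f/f TAM, Cd14 averaged 2374 ± 77.6 TPM (SD, n = 3), Tlr2 458 ± 12.2 TPM and Tlr13 261 ± 12.8 TPM. Cd14 ranked 44 of 25950 genes above 0 there. Tlr9 (102 TPM), Tlr7 (91.6 TPM), Tlr8 (86.9 TPM), Tlr1 (80.4 TPM), Tlr4 (30.4 TPM), Tlr6 (17.0 TPM) and Tlr3 (11.4 TPM) followed. In this order the ranges of Tlr7 and Tlr8 overlapped, and no other neighbours did. In Shp2f/fLysMcre TAM, Tlr8 (203 TPM) and Tlr7 (174 TPM) stood above Tlr9 (117 TPM) and Tlr1 (116 TPM), whose ranges overlapped. In Shp2f/f MDSC the order was Cd14 (470 TPM), Tlr13 (268 TPM), Tlr2 (248 TPM), Tlr7 (157 TPM), Tlr8 (106 TPM), Tlr1 (91.0 TPM), Tlr6 (50.6 TPM), Tlr9 (49.9 TPM), Tlr4 (22.1 TPM) and Tlr3 (2.07 TPM), and Tlr6 and Tlr9 overlapped. In Shp2f/fLysMcre MDSC the order was the same, and the ranges of Tlr13, Tlr2, Tlr7 and Tlr8 overlapped from each to the next, as did those of Tlr6 and Tlr9.

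**Figure D1:**
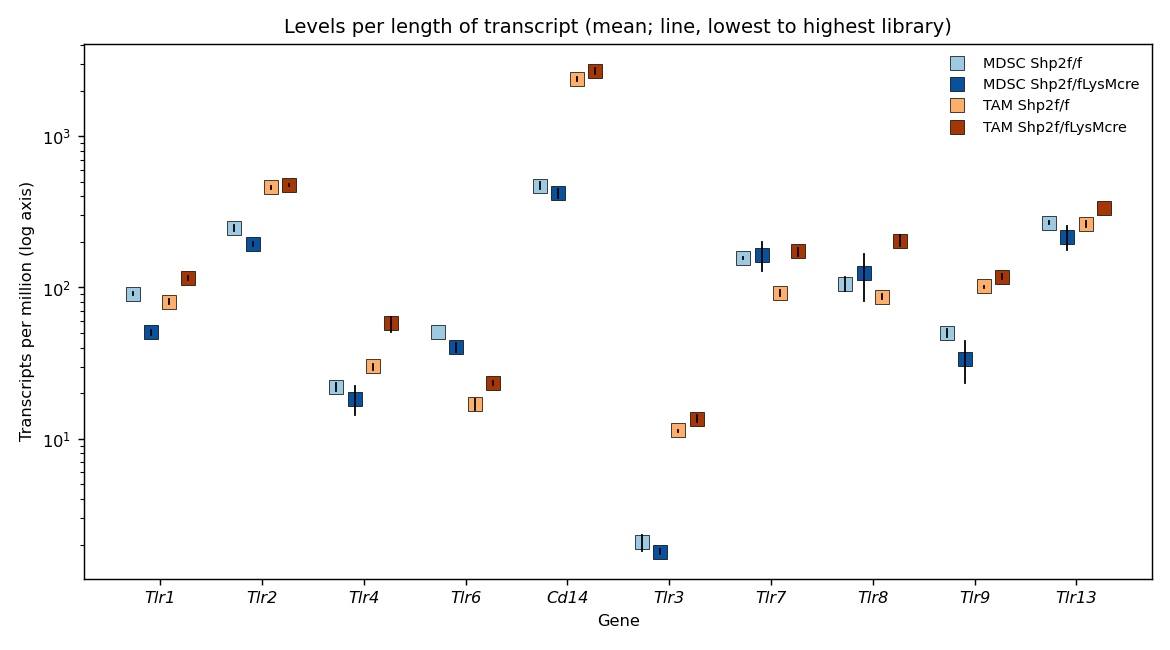
Mean level of each gene in TPM (log axis) in the 4 groups, with a line from the lowest to the highest library (n = 2 per MDSC group and 3 per TAM group). Cd14 is at the top in every group and Tlr3 at the bottom, and Tlr3 is at 2.07 TPM in Shp2f/f MDSC against 11.4 TPM in Shp2f/f TAM.

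To ask how loss of SHP-2 bears on the receptors of macrophages in the tumor, TAM of the genotypes were compared first for the surface receptors. Tlr4, the lipopolysaccharide receptor, had 46.2, 51.6 and 51.3 CPM in Shp2f/f and 92.9, 109 and 112 CPM in Shp2f/fLysMcre. The rise was 2.05-fold (log2 1.04, SE 0.0697, edgeR adjusted p = 5.23e-07). Every Shp2f/fLysMcre library was above every Shp2f/f library. Tlr1, which pairs with Tlr2 to detect triacylated lipoproteins, had 77.8, 82.9 and 76.9 CPM against 123, 129 and 124 CPM, a log2 rise of 0.62 (SE 0.0390, edgeR adjusted p = 3.17e-07). Tlr6, the partner of Tlr2 for diacylated lipoproteins, had 18.7, 20.2 and 17.0 CPM against 27.6, 27.8 and 28.3 CPM, a log2 rise of 0.54 (SE 0.0606, edgeR adjusted p = 2.23e-05). Both partners were thus higher with no overlap between genotypes, while Tlr2 itself moved little. Tlr2, the shared subunit of those pairs, had 399, 422 and 399 CPM against 466, 473 and 447 CPM. Its log2 rise of 0.15 (SE 0.0380, edgeR adjusted p = 0.00718) was the smallest of the family, and it did not pass when libraries were scaled by total counts (log2 0.05, adjusted p = 0.239) or without the filter on low counts (log2 0.14, adjusted p = 0.0582). Cd14, at chr18:36725067-36726798 and the most abundant of the 10, had 1194, 1261 and 1178 CPM against 1590, 1499 and 1410 CPM, a log2 rise of 0.27 (SE 0.0432, edgeR adjusted p = 0.000317).

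The endosomal receptors followed. The human form of Tlr8 senses RNA breakdown products, while the ligands of the mouse form are less settled. Tlr8 had 86.9, 96.8 and 91.9 CPM in Shp2f/f TAM and 220, 234 and 249 CPM in Shp2f/fLysMcre TAM. This rise of 2.49-fold (log2 1.32, SE 0.0543, edgeR adjusted p = 1.90e-08) was the largest of the family. Tlr7, a sensor of single-stranded RNA that lies 40600 bases from Tlr8 on the X chromosome, had 103, 118 and 110 CPM against 216, 237 and 233 CPM, a log2 rise of 1.02 (SE 0.0515, edgeR adjusted p = 7.68e-08). Tlr7 and Tlr8 thus went from near-equal levels per length in Shp2f/f TAM to a higher level of Tlr8 in Shp2f/fLysMcre TAM. Tlr13, which detects bacterial ribosomal RNA and is also X-linked, had 324, 352 and 318 CPM against 469, 467 and 452 CPM, a log2 rise of 0.45 (SE 0.0421, edgeR adjusted p = 6.58e-06). Tlr9, the receptor of unmethylated CpG DNA, had 103, 106 and 103 CPM against 130, 130 and 134 CPM, a log2 rise of 0.30 (SE 0.0360, edgeR adjusted p = 4.12e-05). Tlr3, which binds double-stranded RNA and signals through TRIF, had 16.9, 17.8 and 17.7 CPM against 22.1, 24.2 and 21.7 CPM, a log2 rise of 0.34 (SE 0.0558, edgeR adjusted p = 0.000405). None of the 5 endosomal receptors overlapped between genotypes in TAM.

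All 10 genes were therefore called higher in Shp2f/fLysMcre TAM, where 23.9% of the 14446 genes tested were called higher and 26.3% were called lower. The 10 also had no overlap between genotypes in that direction, a pattern seen in 30.7% of the genes tested. The median log2 difference was 0.49 over the family and -0.01 over all genes tested. For Tlr4, Tlr7 and Tlr8 the log2 rise exceeded 1, as it did for 196 genes in all (1.36% of those tested). Tlr7, Tlr8 and Tlr13 are X-linked, and the median over 467 X-linked genes tested was -0.02, with 21.6% of them called higher. Xist was at 4.84 to 18.5 CPM of the total count in Shp2f/f TAM and 192 to 350 in Shp2f/fLysMcre TAM. The share of each sex thus moved with genotype and cannot be told apart from it. A median over X-linked genes does not speak to single genes, and the part of sex in the values of Tlr7, Tlr8 and Tlr13 was not tested. All 10 macrophage markers were also called higher in Shp2f/fLysMcre TAM, with a summed CPM of the total count of 13279 to 13727 in Shp2f/f and 19954 to 21472 in Shp2f/fLysMcre, and all 6 T and NK cell markers were lower (6.10 to 7.39 against 2.19 to 2.75). Neutrophil markers summed to 4365 to 4592 in Shp2f/f TAM and 2294 to 2350 in Shp2f/fLysMcre TAM, mostly Mmp9, although 5 of the 10 such markers tested were called higher and 1 lower, with Ly6g at or below 0.288 CPM of the total count in every TAM library. The part of these shifts in the receptor values was not tested, and in bulk samples fewer cells of a type and less RNA per cell cannot be told apart. Scaling by total counts shifted the median of all genes to -0.11, at which 9 of the 10 were called higher and the share of higher among all calls went from 47.6% to 30.9%.

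**Figure D2:**
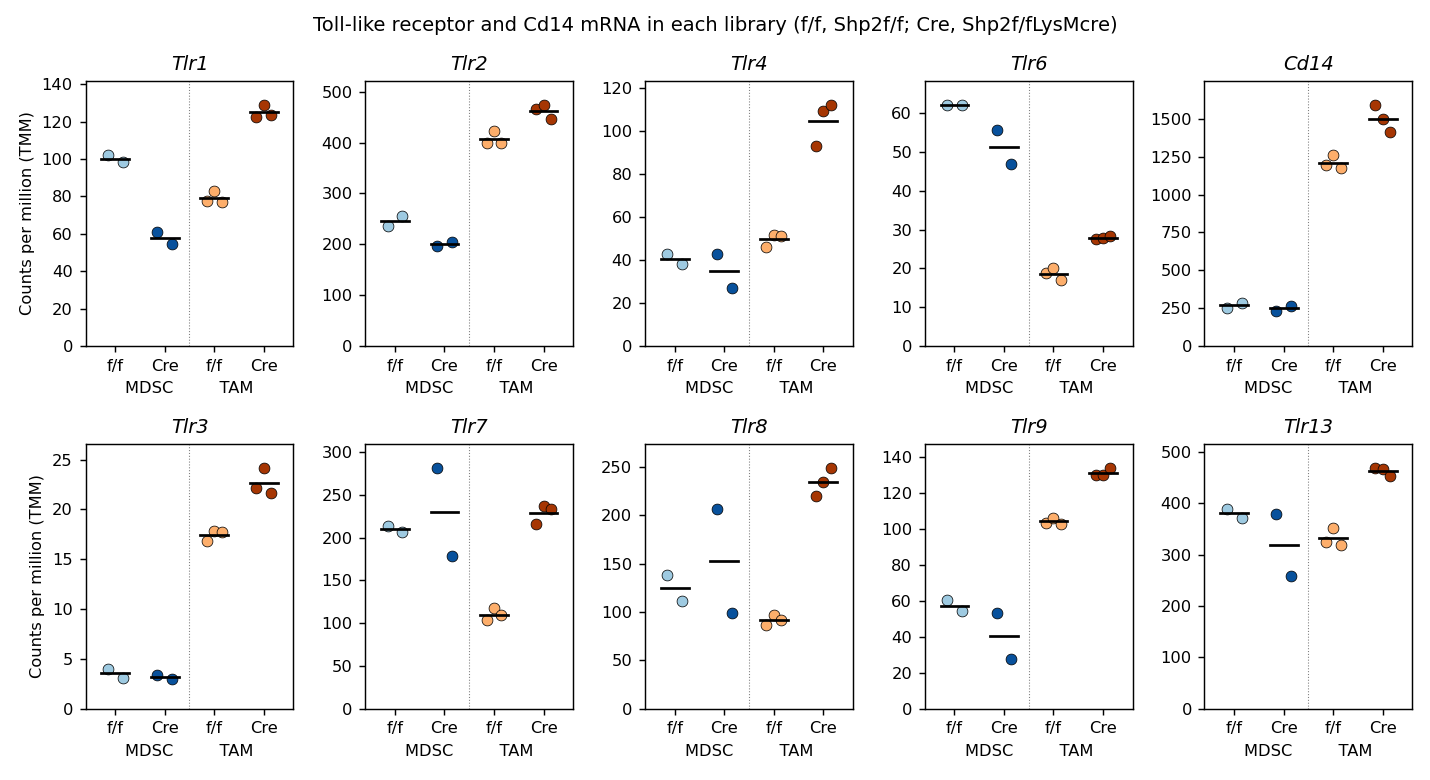
TMM-scaled CPM of each gene in every library (points) with the group mean (line), for Shp2f/f (f/f) and Shp2f/fLysMcre (Cre) mice. In TAM the Cre points lie above the f/f points in all 10 panels, whereas in MDSC the Cre points of Tlr4, Tlr7, Tlr8, Tlr9 and Tlr13 lie far apart.

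MDSC of the genotypes were compared in the same way, although a loss of Ptpn11 transcripts did not pass the test there (log2 -0.29, edgeR adjusted p = 0.361). Tlr1 had 102 and 98.2 CPM in Shp2f/f and 60.8 and 54.6 CPM in Shp2f/fLysMcre. It fell by 0.80 on the log2 scale (SE 0.116, edgeR adjusted p = 0.0287), with no overlap between genotypes. It was 1 of 10 genes called, where 4.28% of 14806 genes were called in either direction and 0.520% were called lower. In this small design the call was lost without the filter on low counts (adjusted p = 0.0645), while the log2 value stayed between -0.92 and -0.72 in all 11 alternatives. Leaving out either Shp2f/f library left 1 in that group, and the Tlr1 call was not kept in those fits.

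The other surface genes did not pass the test in MDSC. Tlr2 had 235 and 256 CPM in Shp2f/f and 197 and 204 CPM in Shp2f/fLysMcre (log2 -0.30, SE 0.114, edgeR adjusted p = 0.238). Tlr6 had 62.0 and 62.1 CPM against 55.6 and 46.9 CPM (log2 -0.28, SE 0.126, edgeR adjusted p = 0.314). In both the genotypes did not overlap. Tlr4 had 42.9 and 38.0 CPM against 42.8 and 27.1 CPM (log2 -0.21, SE 0.234, edgeR adjusted p = 0.710), and Cd14 had 254 and 283 CPM against 234 and 262 CPM (log2 -0.12, SE 0.125, edgeR adjusted p = 0.695). For these 2 genes the genotypes overlapped.

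Nor did the endosomal receptors pass in MDSC, where for Tlr7, Tlr8, Tlr9 and Tlr13 the Shp2f/fLysMcre libraries differed from each other more than the genotype means did. Tlr8 had 138 and 112 CPM in Shp2f/f and 207 and 98.5 CPM in Shp2f/fLysMcre (log2 0.29, SE 0.353, edgeR adjusted p = 0.746). Tlr7 had 214 and 207 CPM against 282 and 178 CPM (log2 0.12, SE 0.231, edgeR adjusted p = 0.844). The Shp2f/f values of both genes lay between those of the Shp2f/fLysMcre libraries. Tlr13 had 388 and 372 CPM against 379 and 259 CPM (log2 -0.26, SE 0.203, edgeR adjusted p = 0.590). Tlr9 had 60.3 and 54.0 CPM against 53.0 and 27.4 CPM (log2 -0.51, SE 0.311, edgeR adjusted p = 0.461), without overlap. Tlr3 was low, at 3.98 and 3.12 CPM against 3.36 and 3.03 CPM (log2 -0.16, SE 0.235, edgeR adjusted p = 0.798).

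In all, 4 of the 10 genes (Tlr1, Tlr2, Tlr6 and Tlr9) were lower in both Shp2f/fLysMcre MDSC libraries than in either Shp2f/f library, as were 24.0% of all genes tested. The median log2 difference was -0.23 over the family and -0.01 over all genes. Without Shp2f/fLysMcre replicate 2, the library with fibroblast transcripts, the log2 values were 0.42 for Tlr7, 0.73 for Tlr8 and -0.72 for Tlr1. For Tlr4, Tlr6 and Tlr9 they were then 0.088, -0.16 and -0.11. Without replicate 1 of the same group, they were -0.92 for Tlr1, -0.62 for Tlr4, -0.45 for Tlr6, -1.11 for Tlr9 and -0.60 for Tlr13. Tlr7 (log2 -0.28) and Tlr8 (log2 -0.39) turned negative. Each of these fits left 1 Shp2f/fLysMcre library, so calls are not given for them here, and the same limit holds without a Shp2f/f library. Which genes passed also moved with the library left out. The directions of Tlr3, Tlr4, Tlr7 and Tlr8 in MDSC thus depended on a single library, and Tlr13 went to a log2 value of -0.0012 without Shp2f/fLysMcre replicate 2. Neutrophil markers summed to 9952 to 10296 CPM of the total count in Shp2f/f MDSC and 28003 to 31851 in Shp2f/fLysMcre MDSC, with 6 of 11 called higher, and B cell markers to 28.3 to 37.7 against 17.6 to 18.2, with 2 of 6 called lower. Erythroid markers summed to 216 to 246 against 410 to 606, with 5 of 7 called higher. Monocyte markers summed to 7050 to 7560 in Shp2f/f and 4635 to 6241 in Shp2f/fLysMcre MDSC, with 0 of 6 called, and macrophage markers to 3266 to 3427 against 2720 to 2745, with 1 of 10 called lower. The part of these shifts in the receptor values was not tested.

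**Figure D3:**
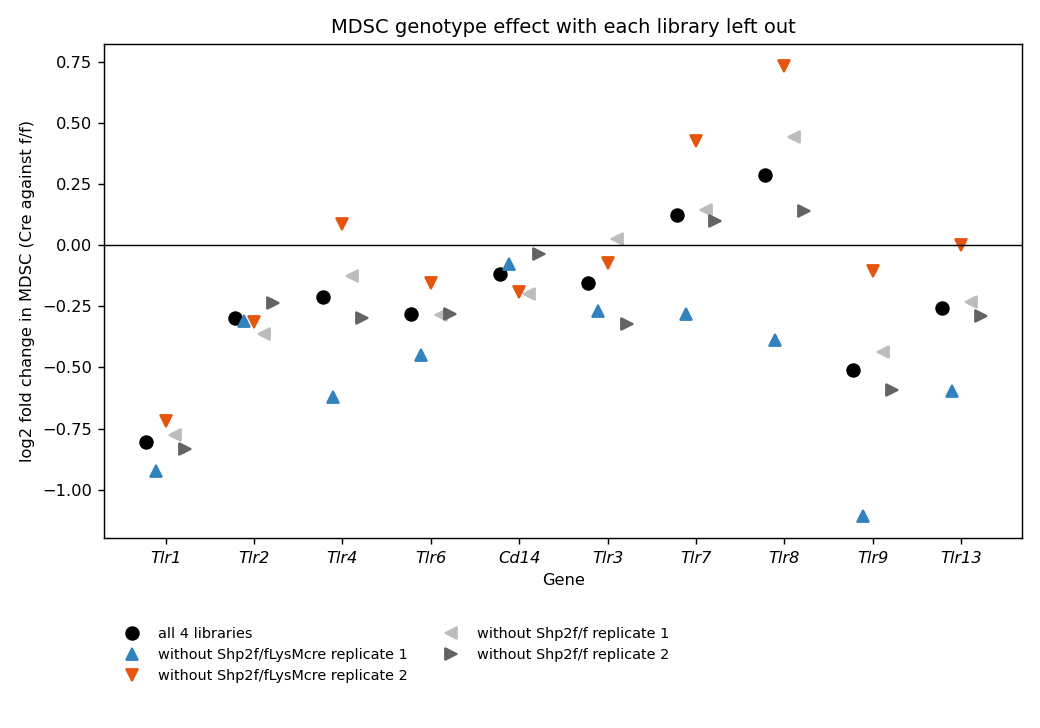
Log2 fold change of each gene in MDSC, Shp2f/fLysMcre (Cre) against Shp2f/f (f/f), with all 4 libraries and with each left out in turn. Tlr1 stays between -0.92 and -0.72, whereas Tlr8 goes from -0.39 without Shp2f/fLysMcre replicate 1 to 0.73 without Shp2f/fLysMcre replicate 2.

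Whether the genotype effect differed between the cell types was tested as an interaction over all 10 libraries, which were treated as independent. The effect in TAM exceeded that in MDSC for 9 of the 10 genes, where 12.2% of 16581 genes were called in that direction. With all libraries the difference was largest for Tlr1 (log2 1.46, SE 0.0915, edgeR adjusted p = 1.21e-05), followed by Tlr4 (1.28, SE 0.233, edgeR adjusted p = 0.00338). Tlr8 (1.06, SE 0.339, edgeR adjusted p = 0.0463), Tlr7 (0.92, SE 0.217, edgeR adjusted p = 0.0124), Tlr6 (0.86, SE 0.124, edgeR adjusted p = 0.000932) and Tlr13 (0.73, SE 0.183, edgeR adjusted p = 0.0165) came next. The smaller differences were those of Tlr3 (0.53, edgeR adjusted p = 0.0377), Tlr2 (0.48, edgeR adjusted p = 0.00345) and Cd14 (0.42, edgeR adjusted p = 0.0248). Tlr9 did not pass (0.84, SE 0.287, edgeR adjusted p = 0.0577). The sizes and their order depended on the MDSC Shp2f/fLysMcre libraries. Without replicate 1 of that group the differences were 1.70 for Tlr8, 1.65 for Tlr4, 1.54 for Tlr1, 1.40 for Tlr9, 1.30 for Tlr7 and 1.04 for Tlr13. Without replicate 2 they were 0.62 for Tlr8, 0.99 for Tlr4, 1.38 for Tlr1, 0.44 for Tlr9, 0.63 for Tlr7 and 0.48 for Tlr13.

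The family showed the interaction unevenly across settings. Replicates varied more in MDSC than in TAM (biological coefficient of variation 0.189 against 0.0595), and limma voom with a weight for each group called 8 genes, losing Tlr3 (adjusted p = 0.314) and Cd14 (adjusted p = 0.0690) and gaining Tlr9 (log2 0.92, adjusted p = 0.00726). Scaling by total counts left 6 called, and Tlr8, Tlr3 and Cd14 were lost. Without either Shp2f/f MDSC library 5 were called. Tlr1, Tlr2, Tlr4 and Tlr6 were called in all 16 alternatives, Tlr7 and Tlr13 in 14, Cd14 in 9, Tlr8 in 6, Tlr9 in 5 and Tlr3 in 4.

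**Figure D4:**
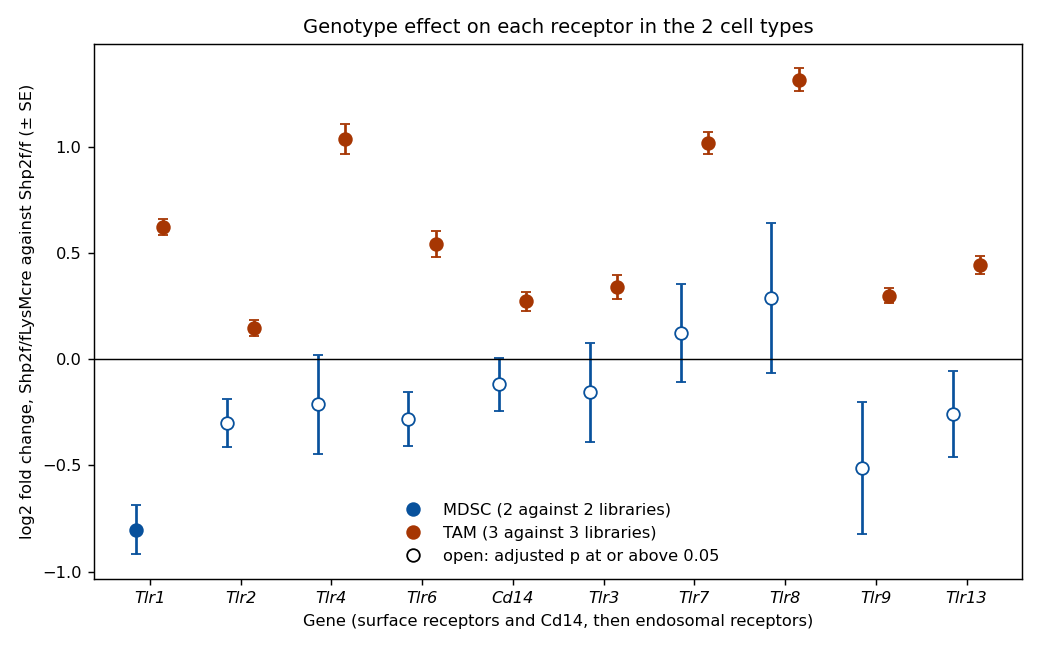
Log2 fold change of Shp2f/fLysMcre against Shp2f/f, with its standard error, for each gene in MDSC (blue, 2 against 2 libraries) and TAM (brown, 3 against 3). All 10 TAM points are filled (called) and above 0, from 0.15 for Tlr2 to 1.32 for Tlr8, and the only filled MDSC point is Tlr1 at -0.80.

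The receptors were next compared between the cell types with SHP-2 intact, to see which set each cell type carries. In Shp2f/f mice, 5 of the 10 genes were higher in TAM than in MDSC, where 40.0% of 15659 genes were called higher, and 5 were lower, where 38.8% were called lower. Tlr3 (log2 2.30, SE 0.107, edgeR adjusted p = 4.06e-08) and Cd14 (log2 2.17, SE 0.0609, edgeR adjusted p = 1.07e-09) were 4.91-fold and 4.51-fold higher in TAM. Tlr9 (log2 0.86), Tlr2 (log2 0.72) and Tlr4 (log2 0.30) were higher by less. Tlr6 was the furthest in the other direction, at 62.0 and 62.1 CPM in MDSC against 18.7, 20.2 and 17.0 CPM in TAM (log2 -1.74, SE 0.0672, edgeR adjusted p = 1.02e-08). Tlr7 (log2 -0.94), Tlr8 (log2 -0.45), Tlr1 (log2 -0.34) and Tlr13 (log2 -0.20) were also lower in TAM, with edgeR adjusted p-values of 0.00684 or less, and no gene of the family overlapped between the cell types. Among all genes tested, 43.7% were higher in TAM and 42.4% lower without overlap. The calls of all 10 were kept in every alternative. Neither the surface nor the endosomal set moved as a block, since each had members on both sides. This comparison shares its Shp2f/f libraries with the genotype comparisons, and cell type, tissue and method of isolation changed together and cannot be told apart.

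The wider pathway was followed through 75 genes in 7 lists, which were also chosen with earlier results of these data known. In TAM, 51 of them were called higher, 9 lower and 15 not called, with a median log2 difference of 0.21, beside 23.9% called higher and 26.3% called lower among all genes tested. Among co-receptors and ligand carriers, 6 of 8 were called higher and 1 lower. Cd36, a scavenger receptor that assists Tlr2 and Tlr6, rose most, from 8.87 ± 0.204 CPM (SD, n = 3) to 23.8 ± 1.41 CPM (log2 1.39, edgeR adjusted p = 3.67e-08), and Hmgb1, a nuclear protein that acts as a Tlr4 ligand when released, fell by 0.50 on the log2 scale. Of 14 genes listed under receptor folding, trafficking and processing, 10 were called higher and 1 lower. The largest rise in this list was that of Lrrc32 (log2 0.96), near the limit of detection at 0.832 and 1.66 CPM. A part of Lrrc32 in the folding or trafficking of Toll-like receptors is not established. Hsp90b1, the chaperone gp96 that folds Toll-like receptors, fell by 0.23 on the log2 scale. Unc93b1 went from 480 to 757 CPM (log2 0.62, edgeR adjusted p = 4.15e-07), and is named as the carrier of the endosomal receptors, after its values were seen.

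Signalling genes of TAM followed a similar pattern. All 7 adaptors were called, 6 higher and 1 lower. Wdfy1, an adaptor that recruits TRIF to Tlr3 and Tlr4, went from 28.4 ± 3.02 to 77.3 ± 4.14 CPM (log2 1.41, edgeR adjusted p = 8.68e-08), and Sarm1, a negative regulator of TRIF, fell by 0.93 on the log2 scale at less than 1 CPM. Of 19 kinases and ubiquitin ligases, 12 were called higher and 2 lower. Map3k8, the kinase that links Toll-like receptors to ERK, rose most, from 36.1 ± 1.12 to 74.1 ± 1.27 CPM (edgeR adjusted p = 1.55e-08), and Traf6, the ubiquitin ligase downstream of MyD88, fell by 0.20 on the log2 scale (edgeR adjusted p = 0.00573). Of 9 transcription factors, 7 were called higher and 1 lower, with the largest rise for Irf8, a factor of the monocyte lineage, from 104 ± 3.56 to 172 ± 5.34 CPM (log2 0.70, edgeR adjusted p = 2.13e-07), and a fall of 0.16 for Nfkb1. Inhibitors were split into 8 called higher, 3 lower and 4 not called. Irak3, the pseudokinase that restrains MyD88 signalling, rose by a log2 value of 0.80 (edgeR adjusted p = 1.20e-07), and Il1rl1, the interleukin-33 receptor, fell by 0.48 on the log2 scale (edgeR adjusted p = 3.04e-05).

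The remaining Toll-like receptors of the mouse were Tlr5, Tlr11 and Tlr12. Tlr5, the flagellin receptor, had 48.2, 46.8 and 45.3 CPM in Shp2f/f TAM and 55.1, 61.1 and 59.3 CPM in Shp2f/fLysMcre TAM (log2 0.29, edgeR adjusted p = 0.000505). Tlr12 rose (log2 1.38, edgeR adjusted p = 0.00356) at 0.207 to 0.744 CPM, and Tlr11 did not pass (log2 0.23, edgeR adjusted p = 0.591).

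In MDSC, 1 of 73 tested pathway genes was called, beside 4.28% of all genes tested, and the median log2 difference was -0.11. The gene was Wdfy1, at 25.0 ± 1.28 CPM in Shp2f/f and 55.2 ± 7.12 CPM in Shp2f/fLysMcre (SD, n = 2, log2 1.14, edgeR adjusted p = 0.0208). It was the only pathway gene called higher in both cell types. The count was 7 with DESeq2 and 0 without the filter on low counts, and it moved with the library left out.

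Patterns over the 10 libraries were set beside those of 16580 other genes by the Pearson correlation of log2 CPM, which in these samples is dominated by the difference between cell types and is given as a description. Abcg1, a cholesterol exporter, was most like Tlr1 (r = 0.994). Trim30a, an interferon-induced gene, was most like Tlr8 (r = 0.976), and Tmem165 was most like Tlr7 (r = 0.989). For Tlr8 this was the lowest value among the 10 genes. Slc3a2, an amino acid transporter subunit, was most like Cd14 (r = 0.9995), Rbpj, the Notch transcription factor, was most like Tlr3 (r = 0.999), and Nckap1l was most like Tlr9 (r = 0.997). Tmem251 for Tlr2 (r = 0.997), Bmt2 for Tlr4 (r = 0.993), L3mbtl3 for Tlr6 (r = 0.997) and Ccdc93 for Tlr13 (r = 0.982) completed the list. Within the family, Cd14 was closest to Tlr3 (r = 0.993) and Tlr2 (r = 0.985) and opposite to Tlr6 (r = -0.886). Tlr7 and Tlr8, neighbours on the X chromosome, had r = 0.824, and Tlr1 and Tlr6, neighbours on chromosome 5, had r = -0.136.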

How the data were processed

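RNA was measured in 10 libraries of 4 groups, with 2 MDSC and 3 TAM libraries per genotype. The authors made stranded poly(A) libraries, sequenced them as paired 42-base reads, aligned them with STAR 2.7.3a to GRCm38 and counted reads over Ensembl genes in featureCounts (Subread 1.6.2). The deposited values used are raw counts per gene. Strand and multi-mapping settings are not given in the sources used here. A second deposited table, of normalized counts, was not used. Symbols came from GENCODE M21, which matched 99.67% of identifiers.

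Genes kept by filterByExpr (minimum count 10) were scaled by TMM and tested with the edgeR 4.0.16 quasi-likelihood test in R 4.3.3, within each cell type for genotype, over all 10 libraries for the interaction, and between cell types in Shp2f/f. P-values were adjusted by Benjamini-Hochberg over all genes, and the threshold for a call was 0.05. Alternatives were DESeq2 1.42.0, its size factors in edgeR, total-count scaling, no filter, a replicate block, limma 3.58.1 voom, 1 fit of all libraries, and each library left out. Tests were checked on simulated data with the same spread in all libraries of a fit. That check does not cover the unequal spread of MDSC and TAM in fits that hold both. No replicate pair agreed within sampling noise (chi-square per degree of freedom 4.46 to 58.1). With total counts of 28844660 or more, 1 CPM is at least 28 counts. The 10 genes and the lists were chosen with earlier results of these data known. Named were the 10 genes, Ptpn11, the called gene of each list with the largest rise and fall, and for each of the 10 the gene with the highest correlation, besides those said to be otherwise named.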

Additional observations from a re-analysis of the deposited data

Results flagged for a closer look

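For 9 of the 10 genes the genotype effect differed between the cell types by the interaction test, where 12.2% of all genes tested were called in that direction, and each difference is the log2 effect in TAM minus that in MDSC. It was 1.46 for Tlr1, 1.28 for Tlr4, 1.06 for Tlr8, 0.92 for Tlr7, 0.86 for Tlr6, 0.73 for Tlr13, 0.53 for Tlr3, 0.48 for Tlr2 and 0.42 for Cd14. Of 16 alternatives, Cd14 passed in 9, Tlr8 in 6 and Tlr3 in 4. For Tlr1 the libraries of each cell type moved in opposite directions without overlap between genotypes. Groups here hold 2 or 3 libraries, and samples that lie far from their own group were therefore not tested for.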

How the results depend on the processing

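Of 510 values of the 10 genes under alternatives, those that changed direction were all in MDSC and all without a library. Leaving out each library gave log2 values of -0.32 to 0.026 for Tlr3 (positive without Shp2f/f replicate 1), -0.62 to 0.088 for Tlr4 (positive without Shp2f/fLysMcre replicate 2), and -0.28 to 0.42 for Tlr7 and -0.39 to 0.73 for Tlr8 (both negative without Shp2f/fLysMcre replicate 1). A lone library is then assumed to vary like those of the other group, and the cause was not tested. In TAM, 127 of 130 values kept their direction and side of the threshold, in the interaction 122 of 160, in MDSC 95 of 110, and between cell types all 110.

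In MDSC, family genes called numbered 0 without the filter on low counts and 2 in 1 fit of all 10 libraries. All genes called numbered 1256 with DESeq2, 130 without the filter and 2666 in 1 fit, against 633. Pathway genes called numbered 7 with DESeq2, 0 without the filter, 2 with voom and 19 in 1 fit, against 1. Leaving out each library gave 0 to 5 family genes, 1 to 4406 genes in all and 0 to 27 pathway genes. In TAM, 1 fit of all libraries called 4837 genes against 7257. In the interaction, leaving out each library gave 5 to 10 family genes and 2446 to 7023 genes in all, against 9 and 4132, and total-count scaling shifted the median of all genes to -0.18 and the share of higher among calls from 49.1% to 28.3%.

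Between genotypes, same-numbered libraries did not deviate together in TAM (r = -0.083, 0.064 and 0.034). In MDSC they had r = 0.174, but with 2 libraries per group only the sign of r can vary with the pairing. Between cell types, same-numbered libraries had r = 0.019 and 0.026 in Shp2f/f and 0.026 and -0.146 in Shp2f/fLysMcre. The numbers were not taken as a pairing, and which libraries shared a mouse is not known. With the replicate block, MDSC gave 2 family genes (Tlr1 and Tlr9), 12 pathway genes and 2674 genes in all, TAM 10, 55 and 6897, the interaction 7 family genes and 3587 in all, and the comparison of cell types 10 and 12292.

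The counts of Tlr3 in MDSC (3.03 to 3.98 CPM) and of Tlr11 and Tlr12 limit what can be seen for them, and 2 MDSC libraries per genotype limit every MDSC value.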

Other observations

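Ratios within a library do not depend on scaling. The ratio of Tlr1 to Tlr6 in TPM was 1.76 and 1.84 in Shp2f/f MDSC, 1.22 and 1.30 in Shp2f/fLysMcre MDSC, 4.58 to 5.04 in Shp2f/f TAM and 4.87 to 5.17 in Shp2f/fLysMcre TAM. That of Tlr7 to Tlr8 was 1.05 to 1.07 in Shp2f/f TAM and 0.822 to 0.888 in Shp2f/fLysMcre TAM, whereas the MDSC libraries spread from 1.20 to 1.62. That of Tlr4 to Tlr2 was 0.0627 to 0.0698 in Shp2f/f TAM and 0.108 to 0.136 in Shp2f/fLysMcre TAM. The 9 receptors together summed to 1109 to 1182 TPM in Shp2f/f TAM and 1468 to 1549 TPM in Shp2f/fLysMcre TAM, and to 976 and 1012 TPM in Shp2f/f MDSC against 974 and 713 TPM in Shp2f/fLysMcre MDSC. Ratios that involve Tlr1 or Tlr6 carry the uncertainty of the reads that fit both genes.

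Within 100000 bases of the 10 genes, 31 other genes were tested in TAM, of which 10 were called higher, 5 lower and 16 not called. Among all genes tested in TAM, 23.9% were called higher and 26.3% lower. Tmsb4x, which encodes thymosin beta 4 and lies 33381 bases from Tlr8, rose in TAM by a log2 value of 0.91 (edgeR adjusted p = 2.81e-08). Prps2, 15764 bases from Tlr7, rose by 0.19 (edgeR adjusted p = 0.0154). On chromosome 5, Fam114a1, which lies 9974 bases from Tlr6, rose by 0.42 (edgeR adjusted p = 0.000110). Among the neighbours called lower, the largest fall was that of Wdr55, 33422 bases from Cd14 (log2 -0.35, edgeR adjusted p = 0.000174). These 4 neighbours were named after their values were seen.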
